A study of Danio rerio with 4 samples.

Results

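The cells described here are macrophages of the adult zebrafish heart that carried at least 1 transcript of il1b or tnfa, called il1b/tnfa macrophages below. They were chosen by a gate on the counts of single cell barcodes. A barcode had to hold at least 500 UMIs (unique molecular identifiers, which count RNA molecules) and at least 200 genes, with at most 50% mitochondrial UMIs and under 25% of UMIs from the globin genes hbaa1, hbaa2, hbba1 and hbba2. It also had to show at least 3 of the 9 macrophage genes mpeg1.1, mfap4, c1qa, c1qb, c1qc, marco, csf1ra, grn1 and lygl1, at most 1 of the 4 neutrophil genes lyz, npsn, mpx and lect2l, and at least 1 UMI of il1b plus tnfa. This gave 1132 barcodes of the 51318 inside the limits on UMIs, genes, mitochondrial and globin share (2.21%), out of 78127 barcodes in all. The 2626 macrophages of the gate comprised these 1132 cells and 1494 cells with neither transcript, which are called other macrophages.

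Hearts came from zebrafish (Danio rerio) of genotype AB. The animals first received 4-thiouridine (4sU), a uridine analogue that marks newly made RNA, by injection near the heart. After 1 h they were either cryoinjured, in which a cold probe kills part of the ventricle, or sham injured, and hearts were taken 6 h after the operation, at 6 hpci (hours post cryoinjury) or 6 hps (hours post sham). Each group had 2 libraries, and each library was made from several pooled hearts, so neither single animals nor their spread can be seen. The sham animals had the same 4sU injection and the same opening of the chest, so a response to these steps is shared by both groups. The counts add labeled and unlabeled RNA and thus describe all transcripts of a cell and not only those made after the operation.

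Interleukin 1 beta (il1b) and tumor necrosis factor (tnfa) are cytokines that macrophages make soon after they sense damage or microbial products. Sensing runs through Toll-like receptors and the cytokine receptors to the transcription factor NF-kB, which switches on further cytokines, chemokines that attract leukocytes, and its own inhibitors. Macrophages also live in the uninjured heart, where they take up debris, and they are needed for heart regeneration in zebrafish.

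The libraries held 15971 and 23000 barcodes at 6 hpci and 19622 and 19534 at 6 hps, with 86891164 to 136777379 UMIs each. Cryoinjured replicate 2 stood apart, since 46.4% of its barcodes had more than 50% mitochondrial UMIs, against 15.7% in cryoinjured replicate 1 and 20.0% and 18.4% in the sham libraries. The gate found 122 and 287 il1b/tnfa macrophages among 339 and 755 macrophages at 6 hpci, and 163 and 560 among 335 and 1197 at 6 hps. Between any pair of libraries 84 to 293 barcodes recurred, none of them among these cells. The fish of both groups that share a replicate number were operated on by the same person, who differed between the numbers, so operator and replicate number cannot be told apart.

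Since the gate asked for at least 3 of its 9 macrophage genes, their levels describe the cells and are no check of the label. Together these genes made up 0.201% and 0.543% of UMIs at 6 hpci and 0.154% and 0.348% at 6 hps in il1b/tnfa macrophages. In other macrophages they made up 0.144% and 0.441% at 6 hpci and 0.116% and 0.217% at 6 hps. The part of this higher share of macrophage RNA in the differences between the classes was not tested. Levels are given as CPM, counts per 1000000 UMIs of the summed cells, with mitochondrial and globin genes left out of the total. The percentages of UMIs printed for summed gene lists, above and below, use this same total and not all UMIs. The granulin gene grn1 had 1241 and 3276 CPM in the cryoinjured and 1045 and 2021 CPM in the sham libraries, and the complement gene c1qc had 139 and 491 CPM in the cryoinjured and 71.8 and 289.8 CPM in the sham libraries. In neutrophils, cells with at least 3 of the 4 neutrophil genes, grn1 had 214 and 557 CPM in the cryoinjured and 101 and 329.9 CPM in the sham libraries. The other genes mfap4, c1qb, marco, c1qa and lygl1 were found in every library, whereas mpeg1.1 (3.999 and 6.36 CPM in the cryoinjured and 1.09 and 8.29 CPM in the sham libraries) and csf1ra (at most 6.73 CPM) were near 0, as they also were in other macrophages. The summed T cell markers came to at most 0.000242% of UMIs and the B cell markers to at most 0.000293%. RNA of other heart cells was present in every class. The cardiomyocyte markers made up 4.71% and 3.78% of UMIs at 6 hpci and 7.04% and 5.94% at 6 hps in il1b/tnfa macrophages. In other macrophages they made up 5.22% and 3.02% at 6 hpci and 7.05% and 6.23% at 6 hps. In the cardiomyocytes defined below they made up 7.19% and 8.65% at 6 hpci and 8.44% and 8.27% at 6 hps. Erythrocyte markers, mostly globin genes that the total leaves out, equalled 7.36% and 5.74% of that total at 6 hpci and 1.67% and 5.31% at 6 hps in il1b/tnfa macrophages. In other macrophages they equalled 9.94% and 4.10% at 6 hpci and 2.525% and 5.35% at 6 hps. The part of RNA of other heart cells in the results was not tested. A doublet caller marked 25.4% and 17.1% of il1b/tnfa macrophages at 6 hpci and 7.36% and 24.6% at 6 hps, against 21.2% and 19.0% and 9.88% and 27.3% of other macrophages. Over all barcodes inside the limits on UMIs, genes and mitochondrial share, an assumed rate set the marks. They came to 9.21% and 9.56% at 6 hpci and 12.5% and 12.7% at 6 hps. Both macrophage classes were thus marked more often than barcodes in general, except in sham replicate 1. These calls were kept, and counts without them are given where they differ.

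Of the 1132 cells, 771 carried il1b alone, 132 carried tnfa alone and 229 carried both. A single UMI of either gene admitted 452 cells, 2 UMIs were found in 239, 3 to 5 in 283 and at least 6 in 158, with a maximum of 29 in sham replicate 2. Among macrophages with il1b, 15.7% and 21.8% at 6 hpci and 22.4% and 25.1% at 6 hps also had tnfa. Among macrophages without il1b the share with tnfa was 6.06% and 8.59% at 6 hpci and 8.51% and 8.35% at 6 hps. At the border of the gate, 51 and 39 members at 6 hpci and 50 and 114 at 6 hps had exactly 3 macrophage genes. A further 49 and 23 barcodes at 6 hpci and 40 and 75 at 6 hps with il1b or tnfa had only 2 of them and were left out. The neutrophil limit left out 36 and 16 carriers with enough macrophage genes at 6 hpci and 5 and 66 at 6 hps.

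Summed over the il1b/tnfa macrophages, il1b had 149 and 199.6 CPM in the cryoinjured and 91.2 and 192 CPM in the sham libraries, and tnfa had 43.3 and 82.6 CPM in the cryoinjured and 23.6 and 50.6 CPM in the sham libraries. The rule chose these values, and no test was made on them within the class. Over all macrophages, a denominator the rule did not split, il1b averaged 69.0 ± 14.3 CPM in the cryoinjured and 73.7 ± 31.3 CPM in the sham libraries (SD, n = 2 each; exact two-sided permutation p = 1). The corresponding levels of tnfa were 24.97 ± 11.0 CPM in the cryoinjured and 19.3 ± 8.41 CPM in the sham libraries (SD, n = 2 each; exact two-sided permutation p = 0.667). With 2 against 2 libraries this test cannot go below 0.333. Neither gene differed between the groups by more than the spread of the libraries. In neutrophils il1b had 82.7 and 190.2 CPM at 6 hpci and 76.1 and 57.4 CPM at 6 hps, whereas tnfa had 1.49 and 0 CPM at 6 hpci and 0 and 8.91 CPM at 6 hps.

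The share of macrophages that carried il1b or tnfa was lower at 6 hpci than at 6 hps in these libraries. It was 36.0% (95% Wilson interval 31.1% to 41.2%) and 38.0% (34.6% to 41.5%) at 6 hpci, against 48.7% (43.4% to 54.0%) and 46.8% (44.0% to 49.6%) at 6 hps. The groups did not overlap, with a difference of -10.7 percentage points and an exact two-sided permutation p of 0.333, the smallest that 2 against 2 libraries allow. The intervals cover counting error only. Depth also differed, with median UMIs per macrophage of 12006 and 7042 at 6 hpci and 15961 and 11569 at 6 hps. When each macrophage was thinned to 1000 UMIs, which left out 4 cells of cryoinjured replicate 1, the shares were 8.06% and 10.9% at 6 hpci and 10.7% and 12.4% at 6 hps. These overlapped, with a difference of -2.09 percentage points (exact permutation p = 0.667). Mean shares were 9.46% at 6 hpci and 11.6% at 6 hps after thinning, against 37.0% and 47.7% with all UMIs. The 2 differences in points therefore stand on unlike bases.

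Free RNA in the droplets can place a transcript in a cell that did not make it. Barcodes with at least 5 cardiomyocyte genes and under 2 of the 9 macrophage genes, called cardiomyocytes, served as a background. This gate took in most barcodes inside the limits. It held 8854 of 10765 and 8923 of 10464 at 6 hpci, and 14116 of 15164 and 12511 of 14925 at 6 hps. Since macrophages also held cardiomyocyte marker RNA, as given above, the name stands for the gate and not for a proven cell type. These barcodes had an il1b or tnfa UMI in 2.63% and 1.52% of cells at 6 hpci and 0.978% and 1.99% at 6 hps, at median depths of 2484 to 3635 UMIs. This gate sets no limit on neutrophil genes. The 4 neutrophil gate genes made up 0.0368% and 0.0350% of their UMIs at 6 hpci and 0.00425% and 0.0549% at 6 hps, so other cells may be among them. Leaving out barcodes with more macrophage genes may also lower this background. After the same thinning the cardiomyocyte shares were 0.782% and 0.572% at 6 hpci and 0.326% and 0.536% at 6 hps, below the macrophage share in every library. Neutrophils carried il1b or tnfa in 48.1% and 52.8% of cells at 6 hpci and 32.3% and 43.3% at 6 hps.

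**Figure D1:**
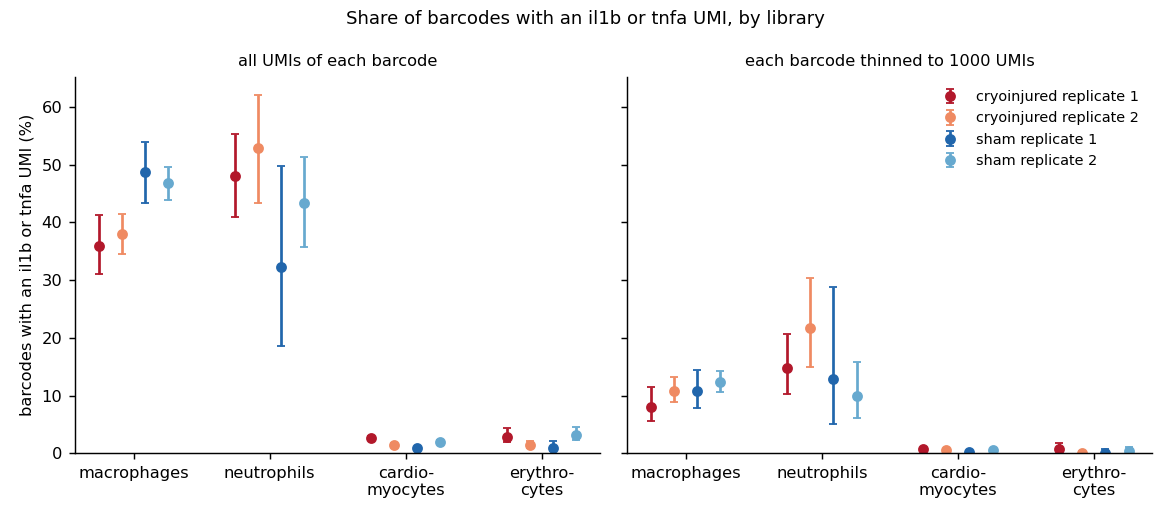
Share of barcodes with at least 1 UMI of il1b or tnfa (y axis, percent) in macrophages, neutrophils, cardiomyocytes and erythrocytes, with 1 point a library and 95% Wilson intervals that cover counting error only. With all UMIs the macrophage share was 36.0% and 38.0% at 6 hpci and 48.7% and 46.8% at 6 hps (left), and with each barcode thinned to 1000 UMIs the groups overlapped (right).

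To see which other genes accompany il1b and tnfa, UMIs were summed per library and class and il1b/tnfa macrophages were compared with the other macrophages of the same library. The genes of the gate, mitochondrial and globin genes were left out. Of 6122 genes tested, 188 were higher (3.07%) and 13 lower (0.212%), together 3.28%, at an adjusted p under 0.05 (edgeR quasi-likelihood test, Benjamini-Hochberg adjustment, here and below). Among the 15 genes with the highest log2 fold change under the naming rule were the chemokines cxcl11.1 and cxcl8a, the granulocyte growth factor csf3b, the oxidase subunit ncf1, the NF-kB inhibitor nfkbiaa and several genes with little annotation. The rule admits only genes with the same direction in all 4 libraries, so for genes named by it that agreement is no further result, here and below. The median log2 fold change over all genes was -0.004. Other macrophages are cells in which no UMI of either gene was detected at this depth, and some may still make them. Median depth was 13028 and 7906 UMIs at 6 hpci and 15862 and 12594 at 6 hps in il1b/tnfa macrophages, against 11430 and 6684 and 16234 and 10954 in other macrophages. The number of genes called fell to 87 without doublet calls, to 57 with a limit of 25% mitochondrial UMIs and to 104 without sham replicate 2, and without cryoinjured replicate 2 it was 215. DESeq2 gave an adjusted p to 307 of the 6122 genes, since its own filter on weak genes took out the rest, 187 of the 201 called genes among them. It called 14 higher and 76 lower genes, of which 14 were shared and 54 of the lower ones encoded ribosomal proteins. Without that filter, an alternative chosen after seeing the data, it called 50 higher and 3 lower genes, of which 51 were shared.

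In the lists that follow, counts of members called stand against 3.07% higher and 0.212% lower among all genes tested between these classes. Chemokine ligands attract leukocytes to a tissue. Of 49 ligands with a row of counts, 19 could be tested, and 5 were higher and 1 lower, with 14 of the 19 above 0 and a median log2 fold change of 0.43. cxcl11.1, of the family that attracts T cells in mammals, had 66.0 and 73.3 CPM in the cryoinjured and 51.2 and 26.1 CPM in the sham libraries in il1b/tnfa macrophages, against 19.7 and 14.7 CPM (cryoinjured) and 10.8 and 3.80 CPM (sham) in other macrophages (log2 fold change 2.11 ± 0.14 (SE), adjusted p = 2.0e-18). Its 4 values in il1b/tnfa macrophages all lay above the 4 in other macrophages. For comparisons between classes, here and below, the share of all genes tested without overlap was not counted. cxcl8a, which attracts neutrophils, had 599 and 865 CPM in the cryoinjured and 429.8 and 965 CPM in the sham libraries in il1b/tnfa macrophages, against 264 and 242 CPM (cryoinjured) and 203 and 294 CPM (sham) in other macrophages (log2 fold change 1.31 ± 0.10 (SE), adjusted p = 4.4e-14). Again the classes did not overlap. ccl35.1 and ccl34a.4, CC chemokines found in fish, were also higher, with log2 fold changes of 0.46 (adjusted p = 0.0051) and 0.43 (adjusted p = 0.0045). ccl20a.3, of the family that attracts dendritic cells and lymphocytes in mammals, had 2.67 and 4.11 CPM in the cryoinjured and 2.63 and 30.7 CPM in the sham libraries in il1b/tnfa macrophages, against 0.876 and 0.983 CPM (cryoinjured) and 0 and 5.58 CPM (sham) in other macrophages (log2 fold change 2.36 ± 0.27 (SE), adjusted p = 7.9e-11). Outside sham replicate 2 its level was low, at most 4.11 CPM in either class. cxcl18b, a further CXC ligand, showed a log2 fold change of 0.11 (adjusted p = 0.83). The one ligand that was lower was cxcl12a, which retains cells through its receptor Cxcr4, with a log2 fold change of -0.74 (adjusted p = 0.023). Of 4 chemokine receptors tested, cxcr3.3, of the receptor family for cxcl11 ligands, was higher, with a log2 fold change of 1.58 (adjusted p = 4.5e-04). Without cryoinjured replicate 2 the number of higher ligands was 9, and without doublet calls it was 2.

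Of 24 other cytokines and growth factors 12 could be tested, and 6 were higher and none lower, with a median log2 fold change of 0.59. csf3b, a ligand that drives the production of neutrophils, had 170.0 and 188 CPM in the cryoinjured and 64.6 and 333 CPM in the sham libraries in il1b/tnfa macrophages, against 48.6 and 64.4 CPM (cryoinjured) and 23.3 and 79.7 CPM (sham) in other macrophages (log2 fold change 1.60 ± 0.11 (SE), adjusted p = 2.4e-18). Its paralog csf3a was higher as well, with a log2 fold change of 1.73 (adjusted p = 2.4e-04). tnfb, a second zebrafish gene of the Tnf family that was not part of the gate, had 30.0 and 63.9 CPM in the cryoinjured and 20.1 and 74.2 CPM in the sham libraries in il1b/tnfa macrophages, against 14.0 and 18.9 CPM (cryoinjured) and 5.67 and 17.5 CPM (sham) in other macrophages (log2 fold change 1.64 ± 0.14 (SE), adjusted p = 4.4e-14). Within each library csf3b and tnfb were higher in il1b/tnfa macrophages, and for tnfb the lowest of these values lay above the highest in other macrophages. il6, hbegfb and m17 were higher, with log2 fold changes of 0.89 (adjusted p = 0.0035), 0.68 (adjusted p = 0.0012) and 1.01 (adjusted p = 0.02). il6 is an acute phase cytokine, m17 belongs to the same cytokine family, and hbegfb is a ligand of the Egf receptor. hbegfa, the paralog of hbegfb, had a log2 fold change of -0.02 (adjusted p = 0.99). Without sham replicate 2 the number of higher cytokines was 3.

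**Figure D2:**
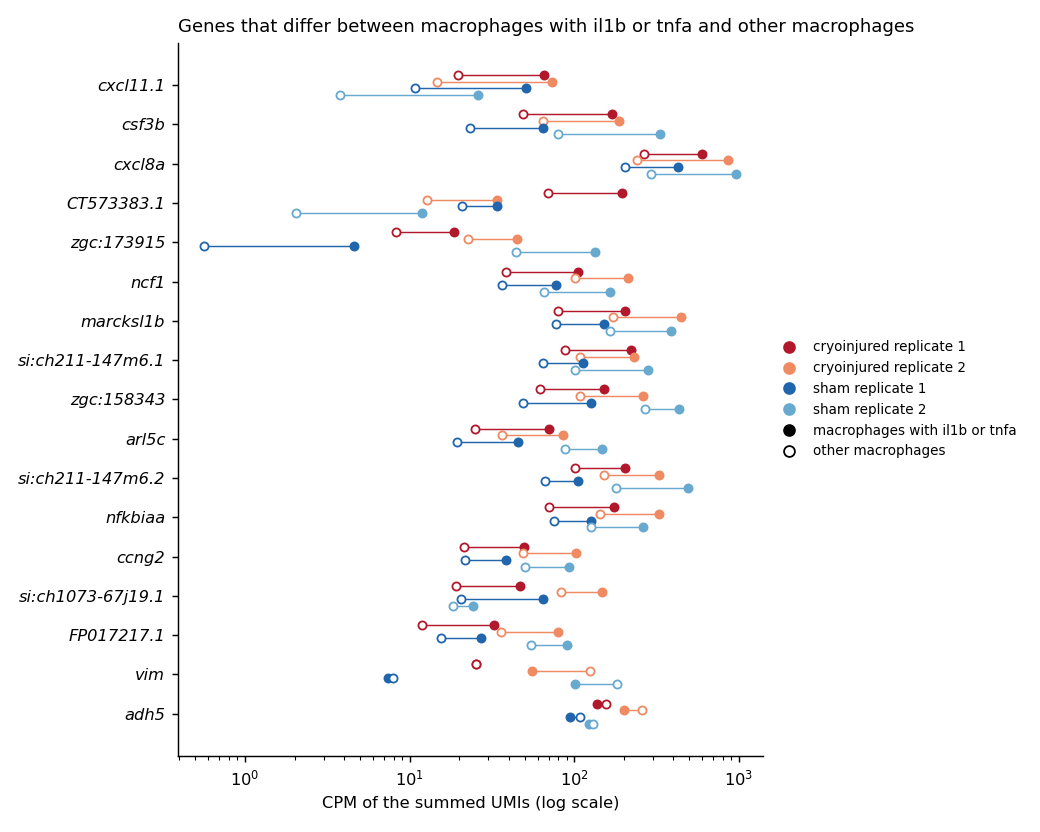
CPM of the summed UMIs (x axis, log scale) in il1b/tnfa macrophages (filled) and other macrophages (open) for the 15 genes with the highest and the 2 with the lowest log2 fold change under the naming rule, with 1 pair a library. The naming rule required the same direction in all 4 libraries. The filled point therefore lies to the right for the upper 15 genes and to the left for vim and adh5. The 2 vim points of cryoinjured replicate 1 lie nearly on top of each other.

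Some NF-kB genes were higher as well. Of 17 subunits and feedback inhibitors 11 could be tested, and 6 were higher and none lower, with a median log2 fold change of 0.62. The inhibitors nfkbiaa and nfkbiab, which hold NF-kB in the cytoplasm, were both among them. nfkbiaa had 174 and 327 CPM in the cryoinjured and 127 and 261 CPM in the sham libraries in il1b/tnfa macrophages, against 70.5 and 144 CPM (cryoinjured) and 75.2 and 127 CPM (sham) in other macrophages (log2 fold change 0.92 ± 0.10 (SE), adjusted p = 3.4e-11). nfkbiab had 243 and 325 CPM in the cryoinjured and 197 and 299.7 CPM in the sham libraries in il1b/tnfa macrophages, against 119.5 and 144 CPM (cryoinjured) and 150.1 and 208 CPM (sham) in other macrophages (log2 fold change 0.62 ± 0.10 (SE), adjusted p = 4.8e-06). Within each library both were higher in il1b/tnfa macrophages. The other members called were relb, a subunit, the inhibitors nfkbie and irak3, and birc2, a ubiquitin ligase of Tnf receptor signalling. Their log2 fold changes were 0.92 (adjusted p = 0.0035), 0.72 (adjusted p = 0.026), 0.75 (adjusted p = 0.048) and 0.45 (adjusted p = 0.015). tnip1, a further inhibitor, had a log2 fold change of 0.32 (adjusted p = 0.21). Without sham replicate 2 the number of higher NF-kB genes was 2.

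Among 8 Toll-like receptors and adaptors tested, tlr5b was the one called. tlr5b, a receptor for flagellin, had 45.3 and 60.6 CPM in the cryoinjured and 34.6 and 54.2 CPM in the sham libraries in il1b/tnfa macrophages, against 9.63 and 24.1 CPM (cryoinjured) and 16.2 and 18.4 CPM (sham) in other macrophages (log2 fold change 1.34 ± 0.13 (SE), adjusted p = 2.6e-12). Its lowest value in il1b/tnfa macrophages lay above its highest value in other macrophages. The adaptor myd88 had a log2 fold change of 0.61 (adjusted p = 0.15). Of 3 inflammasome and pyroptosis genes tested, gsdmea, a pore-forming gasdermin, was higher, with a log2 fold change of 0.87 (adjusted p = 0.0037), and caspa, the caspase that cleaves Il1b in zebrafish, showed 0.08 (adjusted p = 0.96). None of 8 Tnf receptors and induced proteins tested was called.

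Enzymes that make oxidants and lipid mediators came next. Of 9 tested 6 were higher and none lower, with a median log2 fold change of 0.64. ncf1, a cytosolic subunit of the phagocyte NADPH oxidase, had 106 and 213 CPM in the cryoinjured and 77.7 and 165 CPM in the sham libraries in il1b/tnfa macrophages, against 38.5 and 101 CPM (cryoinjured) and 36.3 and 65.7 CPM (sham) in other macrophages (log2 fold change 1.08 ± 0.11 (SE), adjusted p = 6.6e-13). Within each library it was higher in il1b/tnfa macrophages. The membrane subunits cyba and cybb and the cytosolic subunit ncf4 were higher, with log2 fold changes of 0.74 (adjusted p = 1.3e-06), 0.64 (adjusted p = 0.029) and 0.68 (adjusted p = 0.023). acod1, which makes itaconate in activated macrophages, had a log2 fold change of 1.69 (adjusted p = 8.0e-07), and ptgs2a, a cyclooxygenase of prostaglandin synthesis, one of 0.54 (adjusted p = 0.014). sod2, a mitochondrial superoxide dismutase that many heart cells express, had a log2 fold change of -0.12 (adjusted p = 0.7). Without cryoinjured replicate 1, without sham replicate 2 or without doublet calls, 3 of these enzymes were called.

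Matrix proteases and their inhibitors act on the tissue around the cell. Of 12 tested 4 were higher and none lower, with a median log2 fold change of 0.36. timp2b, an inhibitor of metalloproteinases, had 163 and 210.5 CPM in the cryoinjured and 128 and 201 CPM in the sham libraries in il1b/tnfa macrophages, against 75.3 and 120.4 CPM (cryoinjured) and 95.3 and 111 CPM (sham) in other macrophages (log2 fold change 0.65 ± 0.10 (SE), adjusted p = 3.4e-06). The protease adam8a was higher, with a log2 fold change of 0.55 (adjusted p = 0.0035). The other called members were the gelatinase mmp9 and the mmp13a gene ENSDARG00000114451. mmp9 had 46.7 and 52.3 CPM in the cryoinjured and 31.1 and 17.5 CPM in the sham libraries in il1b/tnfa macrophages, against 17.1 and 30.2 CPM (cryoinjured) and 15.04 and 13.6 CPM (sham) in other macrophages (log2 fold change 0.70 ± 0.14 (SE), adjusted p = 3.2e-04). mmp13a ENSDARG00000114451 had 84.0 and 111 CPM in the cryoinjured and 17.5 and 24.1 CPM in the sham libraries in il1b/tnfa macrophages, against 33.3 and 57.7 CPM (cryoinjured) and 10.2 and 17.4 CPM (sham) in other macrophages (log2 fold change 0.71 ± 0.12 (SE), adjusted p = 3.4e-05). A second gene with the symbol mmp13a, ENSDARG00000012395, showed 69.3 and 67.3 CPM in the cryoinjured and 11.6 and 23.1 CPM in the sham libraries in il1b/tnfa macrophages, against 12.7 and 37.1 CPM (cryoinjured) and 6.53 and 18.0 CPM (sham) in other macrophages (log2 fold change 0.83 ± 0.37 (SE), adjusted p = 0.54), and reads of the pair may not be fully separable. Neutrophils had more of both called genes, with 84.2 and 430.3 CPM in the cryoinjured and 154 and 51.8 CPM in the sham libraries for mmp9 and 545 and 2533 CPM in the cryoinjured and 269 and 293 CPM in the sham libraries for mmp13a ENSDARG00000114451. The neutrophil gate genes summed to 0.00427% and 0.0159% of UMIs at 6 hpci and 0.00326% and 0.00381% at 6 hps in il1b/tnfa macrophages, against 0.0042% and 0.0146% and 0.00204% and 0.00325% in other macrophages. The neutrophil marker illr4 was also higher, with a log2 fold change of 0.59 (adjusted p = 7.2e-04). Among cells with none of the 4 neutrophil genes, 3 of 10 tested members of the protease list were called, and without doublet calls 1 of 11 was. The part of neutrophil RNA in these differences was not tested.

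Of 16 myeloid transcription factors tested 3 were higher. These were the C/EBP factors cebpb and cebpa and the Mitf family factor tfec, with log2 fold changes of 0.39 (adjusted p = 0.0099), 0.81 (adjusted p = 5.9e-04) and 0.99 (adjusted p = 0.015). spi1b, which specifies the myeloid lineage, had a log2 fold change of 0.36 (adjusted p = 0.073). AP-1 and immediate early genes, which switch on within minutes of a stimulus and also during dissociation, had a median log2 fold change of 0.33 with 26 of 28 above 0 and 7 called higher. Their members called were junba, fosl1a, jund, ier2a, nr4a1, egr2a and dusp2, with log2 fold changes of 0.34 to 0.76. fosab, a subunit of AP-1, had 167 and 154 CPM in the cryoinjured and 344 and 642 CPM in the sham libraries in il1b/tnfa macrophages, against 109 and 111 CPM (cryoinjured) and 272 and 639.7 CPM (sham) in other macrophages (log2 fold change 0.20 ± 0.10 (SE), adjusted p = 0.42). atf3, a stress-induced partner of AP-1, had a log2 fold change of 0.31 (adjusted p = 0.055). Without doublet calls 1 AP-1 or immediate early gene was called and with DESeq2 without its filter 0, against 16 with library sizes alone. With 1 library left out the count was 3 without sham replicate 1 and 4 without each of the others. Without doublet calls or without cryoinjured replicate 1, 1 of the transcription factors was called.

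Heat shock chaperones, which refold damaged proteins and are also induced by tissue handling, had 8 of 15 members higher and none lower, with a median log2 fold change of 0.36. hsp70l had 2023 and 2917 CPM in the cryoinjured and 1256 and 5588 CPM in the sham libraries in il1b/tnfa macrophages, against 1109 and 2132 CPM (cryoinjured) and 953 and 4454 CPM (sham) in other macrophages (log2 fold change 0.36 ± 0.09 (SE), adjusted p = 0.012). The copies hsp70.1, hsp70.2 and hsp70.3 were higher, with log2 fold changes of 0.38, 0.43 and 0.44, and since they are near-identical the split of reads between them is uncertain. hspb1, a small heat shock protein, showed a log2 fold change of 0.01 (adjusted p = 0.99). In the cryoinjured libraries alone 0 chaperones were called. Without doublet calls, without cryoinjured replicate 1 or without sham replicate 1 the count was 3, and without sham replicate 2 it was 5.

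Other lists showed few calls. Over all 6122 genes tested 3.07% were higher, and the 1 of 23 glycolysis and Hif genes called is near that share. Of 13 scavenging, lipid and repair genes and of 5 genes of MHC class II presentation none was called, with median log2 fold changes of 0.08 and 0.02. The invariant chain genes cd74a and cd74b showed log2 fold changes of -0.14 (adjusted p = 0.66) and -0.13 (adjusted p = 0.7). Lysosomal genes had 2 of 14 higher, the protease ctsba and the granulin grn2, with log2 fold changes of 0.41 (adjusted p = 0.014) and 0.73 (adjusted p = 0.0039). Leukocyte adhesion and cytoskeleton genes had 2 of 13 higher, the phosphatase ptprc and plek, with log2 fold changes of 0.68 (adjusted p = 0.031) and 0.59 (adjusted p = 0.027). Without cryoinjured replicate 1, sham replicate 1 or sham replicate 2 none of these adhesion genes was called. Glycolysis and Hif genes had 1 of 23 higher, pfkfb3, an activator of glycolysis, with 18.7 and 51.6 CPM in the cryoinjured and 21.2 and 47.0 CPM in the sham libraries in il1b/tnfa macrophages, against 5.25 and 20.4 CPM (cryoinjured) and 12.8 and 24.1 CPM (sham) in other macrophages (log2 fold change 0.96 ± 0.14 (SE), adjusted p = 2.2e-07). None of 82 ribosomal protein genes and none of 4 interferon-induced genes was called. Ribosomal protein genes had a median log2 fold change of -0.21, with 2 of 82 above 0. When counts were scaled by library size alone, without TMM factors, all genes together had a median log2 fold change of 0.12. That of the glycolysis list was then 0.10 in place of -0.04 and that of the cardiomyocyte markers 0.04 in place of -0.11, so these directions flip with the scaling.

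Of the 13 genes that were lower, 2 met the naming rule. vim, the intermediate filament gene vimentin, had 25.3 and 55.7 CPM in the cryoinjured and 7.44 and 101 CPM in the sham libraries in il1b/tnfa macrophages, against 25.4 and 126 CPM (cryoinjured) and 7.94 and 182 CPM (sham) in other macrophages (log2 fold change -0.89 ± 0.17 (SE), adjusted p = 0.01). In cryoinjured replicate 1 the difference was very small. adh5, an alcohol and formaldehyde dehydrogenase, had a log2 fold change of -0.35 (adjusted p = 0.03). It passed the adjusted threshold in 5 of 16 alternative fits, whereas vim did so in 13 of 15. Other lower genes, named after their values were seen, were the kininogen kng1, the Igf binding protein igfbp2a, the protease inhibitor timp4.2 and the matrix protein mgp, with log2 fold changes of -1.24 (adjusted p = 4.2e-04), -0.78 (adjusted p = 0.016), -0.90 (adjusted p = 0.019) and -0.55 (adjusted p = 0.021). Of the 8 cardiomyocyte marker genes tested 1 was lower and 0 had a log2 fold change above 0 under TMM factors.

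**Figure D3:**
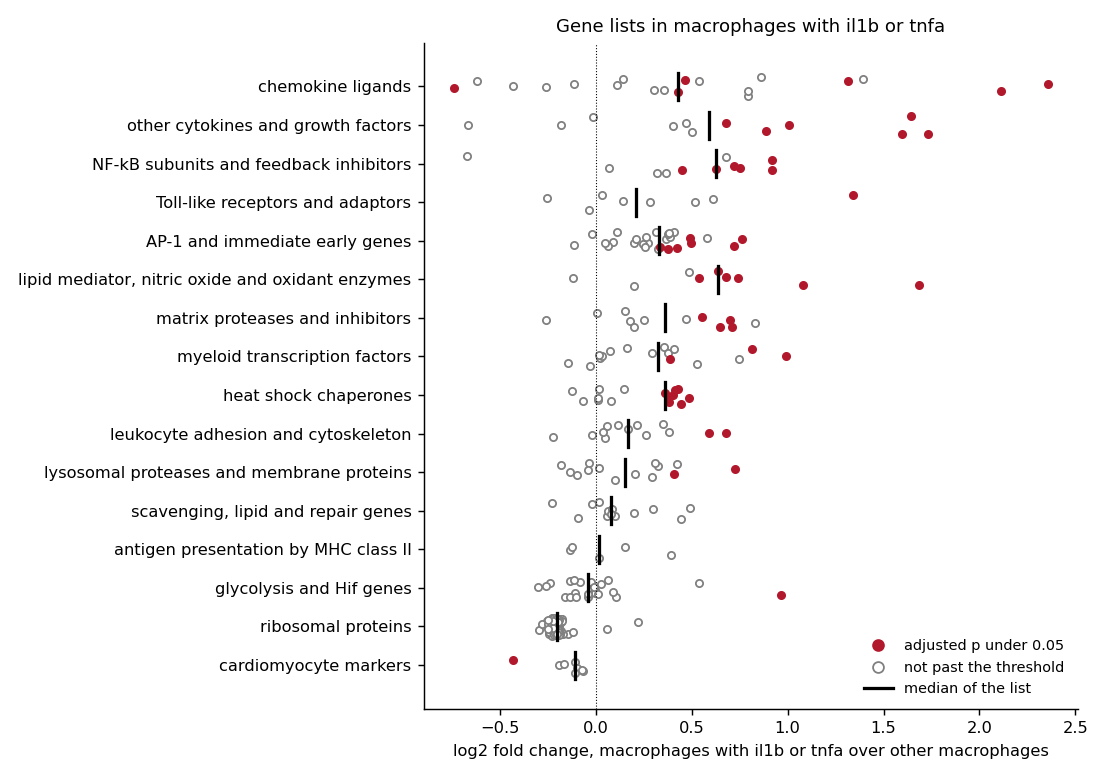
Log2 fold change of il1b/tnfa macrophages over other macrophages (x axis) for each tested gene of 16 lists, red where the adjusted p was under 0.05, with the list's median as a bar. Chemokines, cytokines, NF-kB genes and oxidant enzymes have medians of 0.43 to 0.64, whereas ribosomal protein genes lie at -0.21.

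Several genes without an informative name were among the 15 highest. marcksl1b, a gene of the Marcks family that binds actin, had 203 and 444 CPM in the cryoinjured and 151 and 386 CPM in the sham libraries in il1b/tnfa macrophages, against 80.1 and 171 CPM (cryoinjured) and 77.2 and 166 CPM (sham) in other macrophages (log2 fold change 1.08 ± 0.10 (SE), adjusted p = 3.2e-14). si:ch211-147m6.1 had 221 and 233 CPM in the cryoinjured and 113 and 283 CPM in the sham libraries in il1b/tnfa macrophages, against 88.5 and 108 CPM (cryoinjured) and 65.0 and 101 CPM (sham) in other macrophages (log2 fold change 1.04 ± 0.11 (SE), adjusted p = 5.7e-12). It was higher in all 4 libraries, as the naming rule required. The same held for si:ch211-147m6.2, with a log2 fold change of 0.93 (adjusted p = 2.7e-09). zgc:158343 and arl5c, a small GTPase gene, had log2 fold changes of 0.98 (adjusted p = 4.8e-11) and 0.96 (adjusted p = 9.9e-10). ccng2, a cyclin linked to cell cycle arrest, had a log2 fold change of 0.83 (adjusted p = 1.0e-07), and FP017217.1 one of 0.81 (adjusted p = 9.3e-07). CT573383.1 had 194 and 34.0 CPM in the cryoinjured and 33.9 and 11.9 CPM in the sham libraries in il1b/tnfa macrophages, against 69.2 and 12.8 CPM (cryoinjured) and 20.7 and 2.03 CPM (sham) in other macrophages (log2 fold change 1.25 ± 0.20 (SE), adjusted p = 0.0033), and cryoinjured replicate 1 had the highest level in both classes. zgc:173915 had a log2 fold change of 1.25 (adjusted p = 1.0e-06) and reached 135 CPM in sham replicate 2. si:ch1073-67j19.1 had a log2 fold change of 0.83 (adjusted p = 0.04), and its level was far higher in neutrophils (212 and 1780.4 CPM in the cryoinjured and 457 and 104 CPM in the sham libraries). It was no longer called among cells with none of the 4 neutrophil genes, where its log2 fold change was 0.47.

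The level of some of these genes, but not of others, climbed with the number of il1b and tnfa UMIs in the cell. These genes were chosen because they differed between cells with at least 1 such UMI and cells with 0. A difference from the bin with 0 was therefore built into the choice, and only the steps among the higher bins were free of it. Macrophages were split by 0, 1, 2 to 3, and 4 or more UMIs of the pair (1494, 452, 381 and 299 cells), and the levels are given as a description with no test. cxcl8a had, in this order, 264, 353, 687 and 1210.4 CPM in cryoinjured replicate 1 and 242, 564, 1012 and 1085 CPM in cryoinjured replicate 2. In sham replicate 1 it had 203, 263, 316 and 877 CPM and in sham replicate 2 294, 459, 836 and 1693 CPM. It climbed at each step in 4 of 4 libraries, as marcksl1b did. cxcl11.1, nfkbiaa and arl5c climbed at each step in 3 libraries, csf3b, ncf1 and ccng2 in 2, and zgc:158343 and FP017217.1 in 1. CT573383.1 and si:ch1073-67j19.1 did so in 0 libraries, although higher in il1b/tnfa macrophages, as did the lower gene vim. The top bin of cryoinjured replicate 1 held 18 cells. Median UMIs per cell in the top bin were 16484 and 8894 at 6 hpci and 13574 and 12394 at 6 hps, against 11430 and 6684 and 16234 and 10954 in the bin with 0, so depth was not the same across the bins.

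**Figure D4:**
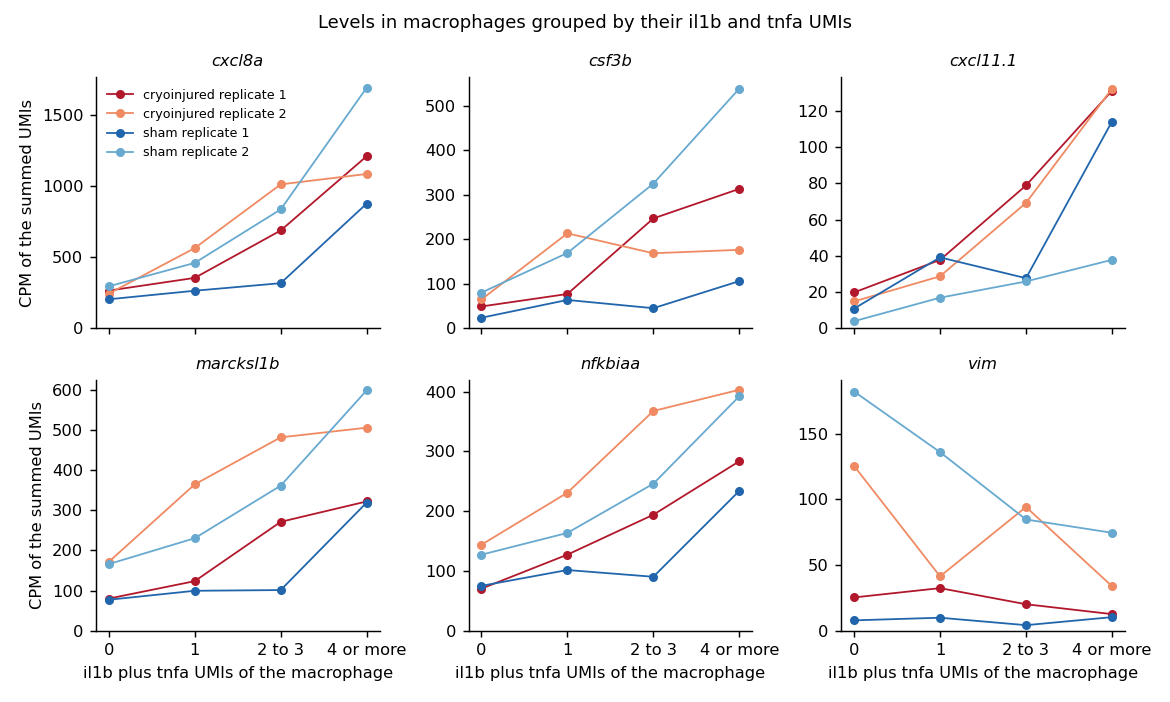
CPM of the summed UMIs (y axis) of 6 genes in macrophages with 0, 1, 2 to 3, and 4 or more UMIs of il1b plus tnfa (x axis), with 1 line a library. cxcl8a and marcksl1b climb at each step in 4 of 4 libraries and vim in none. The genes were chosen for a difference from the cells with 0 UMIs, so the first point is no independent one.

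The cells were also compared among themselves by the cytokine they carried, the 361 cells with tnfa against the 771 cells with il1b only. Of the 361 cells, 229 carried both genes and so had at least 2 UMIs of the pair, whereas 1 UMI admitted a cell with il1b only. The number of UMIs was not matched, so the kind of cytokine and the number of its UMIs cannot be told apart here. Of 3809 genes tested 7 were higher (0.184%) and 4 lower (0.105%), together 0.289%, and 290 (7.61%) passed 0.05 before adjustment. Chemokines led again, with 4 of 10 tested ligands higher. Without cryoinjured replicate 1, 72 genes were called, without sham replicate 1, 22, and with library sizes alone 13 were higher and 4 lower. cxcl11.1 had 110.5 and 125 CPM in the cryoinjured and 98.0 and 43.8 CPM in the sham libraries in macrophages with tnfa, against 50.4 and 44.7 CPM (cryoinjured) and 33.3 and 18.0 CPM (sham) in macrophages with il1b only (log2 fold change 1.32 ± 0.14 (SE), adjusted p = 3.0e-06). ccl35.1 had 396 and 970.5 CPM in the cryoinjured and 293 and 1286 CPM in the sham libraries in macrophages with tnfa, against 196 and 349.7 CPM (cryoinjured) and 113 and 635 CPM (sham) in macrophages with il1b only (log2 fold change 1.16 ± 0.10 (SE), adjusted p = 4.3e-08). cxcl8a had 899 and 1096 CPM in the cryoinjured and 579 and 1407 CPM in the sham libraries in macrophages with tnfa, against 493 and 736 CPM (cryoinjured) and 373 and 762 CPM (sham) in macrophages with il1b only (log2 fold change 0.68 ± 0.09 (SE), adjusted p = 2.2e-04). Each was higher in the tnfa cells of every library, as the naming rule required. ccl35.2, ctss2.1, a cathepsin S gene, lacc1 and FO704661.1 were the other higher genes, with log2 fold changes of 1.13, 0.72, 0.78 and 1.63. csf3b, by contrast, had a log2 fold change of 0.01 (adjusted p = 1). The lower genes were vim, si:ch211-9d9.1, cotl1 and tmsb4x, with log2 fold changes of -0.95, -0.73, -0.62 and -0.37. Of these cotl1 and tmsb4x encode proteins that bind actin. Without doublet calls 5 genes were called.

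Neutrophils are the other leukocytes known to carry il1b, and 472 of them (185 and 106 at 6 hpci, 31 and 150 at 6 hps) passed the neutrophil gate. Against them, 171 of 4806 genes were higher in il1b/tnfa macrophages (3.56%) and 25 lower (0.52%), together 4.08%. The neutrophils were taken whether or not they carried il1b or tnfa. Cell type and the choice of cells by these UMIs therefore cannot be told apart in this comparison. The higher genes held chemokines (7 of 13 tested), scavenging and lipid genes (7 of 13) and lysosomal genes (6 of 14). Without doublet calls 3 of the scavenging and lipid genes were called. csf3b had 170.0 and 188 CPM in the cryoinjured and 64.6 and 333 CPM in the sham libraries in il1b/tnfa macrophages, against 25.9 and 45.9 CPM (cryoinjured) and 5.07 and 69.9 CPM (sham) in neutrophils (log2 fold change 2.48 ± 0.17 (SE), adjusted p = 2.7e-07). ccl34a.4 had 125 and 242 CPM in the cryoinjured and 81.8 and 203 CPM in the sham libraries in il1b/tnfa macrophages, against 12.5 and 44.5 CPM (cryoinjured) and 5.07 and 45.5 CPM (sham) in neutrophils (log2 fold change 2.72 ± 0.21 (SE), adjusted p = 3.6e-06). Every il1b/tnfa macrophage sum was above every neutrophil sum for ccl34a.4, while for csf3b the values of single libraries overlapped. cxcl11.1 and cxcl8a had log2 fold changes of 2.54 and 2.24, and si:ch211-147m6.1 and si:ch211-147m6.2 of 3.19 and 3.11. The haptoglobin gene hp, the invariant chain cd74b, fgl2a, the apolipoprotein apoc1 and the autophagy gene vmp1 were also higher, with log2 fold changes of 2.57, 2.33, 2.14, 2.24 and 1.89. The oxidase subunits ncf1 and cyba showed log2 fold changes of -0.10 (adjusted p = 0.96) and 0.25 (adjusted p = 0.84) against neutrophils.

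Genes lower than in neutrophils were led by the collagenase mmp13a ENSDARG00000114451 with 84.0 and 111 CPM in the cryoinjured and 17.5 and 24.1 CPM in the sham libraries in il1b/tnfa macrophages, against 545 and 2533 CPM (cryoinjured) and 269 and 293 CPM (sham) in neutrophils (log2 fold change -3.65 ± 0.27 (SE), adjusted p = 2.1e-04). mmp13a ENSDARG00000012395 was higher, with a log2 fold change of 2.52 (adjusted p = 4.5e-04). cfl1l, an actin severing factor, cpa5, a carboxypeptidase, calm1b, a calmodulin gene, s1pr4, a lipid receptor, and the gelatinase mmp9 were lower, with log2 fold changes of -3.37, -3.06, -2.62, -2.09 and -1.93. Without doublet calls 130 genes were called in this comparison, and 111 were called without cryoinjured replicate 1.

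Cryoinjury was compared with sham injury within the il1b/tnfa macrophages, with 2 libraries a group. Of 6419 genes tested 0 were called in either direction (0% higher and 0% lower), 379 (5.90%) passed 0.05 before adjustment, and DESeq2 called 4 genes. With a library left out, and the lone library of that group assumed to vary like the others, the count was 172 without cryoinjured replicate 1, 26 without cryoinjured replicate 2, 24 without sham replicate 1 and 45 without sham replicate 2. With the replicate number as a block, so that each cryoinjured library is set against the sham library of the same operator, 278 genes were higher (4.33%) and 96 lower (1.5%). That fit leaves 1 residual degree of freedom, so its p-values lean on a spread estimated in part from other genes. Same-numbered libraries deviated together with a correlation of 0.41. The genes with the smallest p without the block follow. mmp13a ENSDARG00000114451 had 84.0 and 111 CPM in the cryoinjured libraries, against 17.5 and 24.1 CPM in the sham libraries (log2 fold change 2.65 ± 0.43, SE, adjusted p = 0.84, and 7.7e-12 with the block). mmp13a ENSDARG00000012395 had 69.3 and 67.3 CPM in the cryoinjured libraries, against 11.6 and 23.1 CPM in the sham libraries, and tppp, which binds tubulin, had 117 and 163 CPM in the cryoinjured libraries, against 30.2 and 43.5 CPM in the sham libraries. s100a10a, which binds plasminogen in mammals as a partner of annexin A2, had 82.6 and 130.5 CPM in the cryoinjured libraries, against 32.8 and 27.3 CPM in the sham libraries. For all of these both cryoinjured sums were above both sham sums, and with the block each passed the adjusted threshold, as did BX908782.2. They were chosen for a small p in the same libraries, so neither the separation nor the pass with the block is a further result. At 6 hpci BX908782.2 had 1746 and 2271 CPM, against 811 and 914 CPM at 6 hps, and it was higher still in neutrophils (4395 and 10747 CPM in the cryoinjured and 2220.3 and 1365 CPM in the sham libraries).

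On the low side, hsp90aa1.1, a chaperone of muscle myosin, had 56.0 and 64.3 CPM in the cryoinjured libraries, against 348 and 192 CPM in the sham libraries (log2 fold change -1.78, adjusted p = 0.84). hspb8, a small heat shock protein, had 25.3 and 15.3 CPM in the cryoinjured libraries, against 70.7 and 86.8 CPM in the sham libraries. C11orf96, nppc, which encodes C-type natriuretic peptide, and zgc:195023 had log2 fold changes of -2.18, -2.33 and -2.12, each with an adjusted p of 0.84. All 5 genes passed the threshold with the replicate block, but they too were chosen for a small p in the same libraries. In these 5 genes the sums of the groups did not overlap, which held for 39.6% of all genes tested on the low side and 5.08% on the high side in CPM. Without TMM factors the median of all genes was -0.40 on the log2 scale, so most genes lay lower at 6 hpci before scaling. Cardiomyocyte marker shares, given above, were also lower at 6 hpci in these cells, and their part in the muscle genes was not tested.

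**Figure D5:**
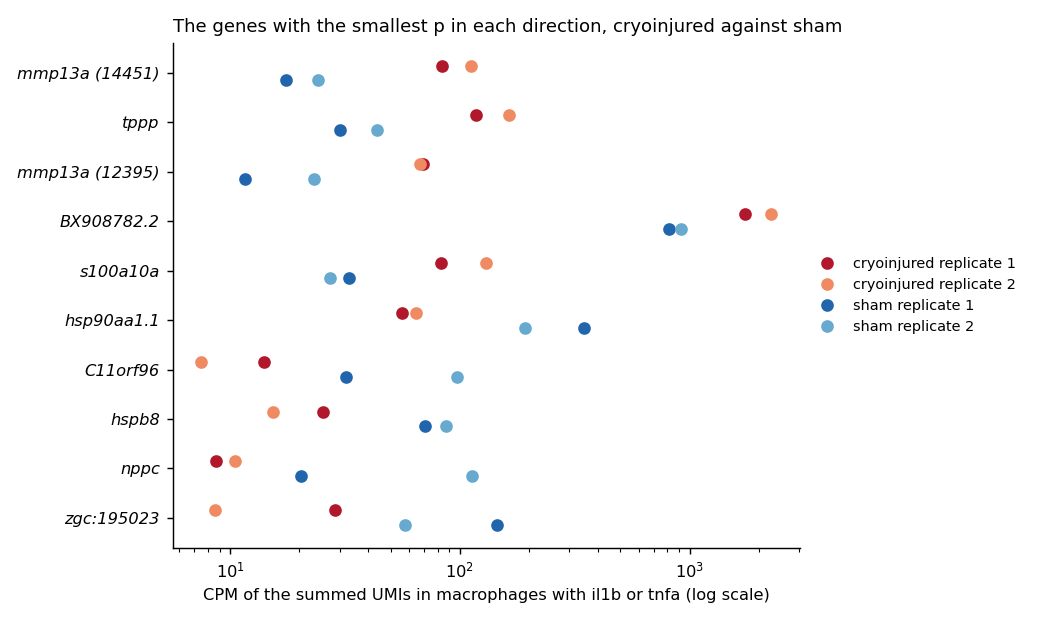
CPM of the summed UMIs in il1b/tnfa macrophages (x axis, log scale) for the 5 genes with the smallest p on the high side and the 5 on the low side of cryoinjured against sham, with 1 point a library. The 2 mmp13a genes carry the last 5 digits of their identifiers. The cryoinjured points lie apart from the sham points in all 10 genes. Without the replicate block 0 of 6419 genes passed the adjusted threshold, whereas all 10 did with it. The 10 genes were chosen for a small p in these same libraries, so neither point is a further result.

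The genes that marked the class were looked at next. cxcl8a had 599 and 865 CPM in the cryoinjured libraries, against 429.8 and 965 CPM in the sham libraries (log2 fold change 0.51, adjusted p = 0.93), and csf3b had 170.0 and 188 CPM in the cryoinjured libraries, against 64.6 and 333 CPM in the sham libraries (log2 fold change 0.31, adjusted p = 0.98). Both overlapped between the groups. cxcl11.1 had 66.0 and 73.3 CPM in the cryoinjured libraries, against 51.2 and 26.1 CPM in the sham libraries (log2 fold change 1.24, adjusted p = 0.84), where they did not. By lists, AP-1 and immediate early genes had a median log2 fold change of -0.29 with 8 of 29 above 0, and fosab had 167 and 154 CPM in the cryoinjured libraries, against 344 and 642 CPM in the sham libraries. Matrix proteases and inhibitors had a median log2 fold change of 1.03 with 10 of 12 above 0. The 6 neutrophil markers moved the same way, with 0.0196% and 0.0350% of UMIs in the cryoinjured and 0.0149% and 0.0155% in the sham libraries, and both mmp9 and mmp13a ENSDARG00000114451 were higher in neutrophils, so their part in the protease values was not tested. MHC class II genes had a median log2 fold change of 1.103 with 5 of 5 above 0, but without cryoinjured replicate 2 it was -0.70. Leukocyte adhesion and cytoskeleton genes had a median log2 fold change of 1.23, and 0.25 without that library. The median log2 fold change over all genes was 0.01. No member of any list passed the adjusted threshold without the block. With the replicate block, 5 of 12 proteases and inhibitors, 5 of 13 adhesion and cytoskeleton genes, 2 of 5 MHC class II genes and 70 of 82 ribosomal protein genes were higher, and 5 of 29 AP-1 and immediate early genes were lower. Among all genes tested in that fit, 4.33% were higher and 1.5% lower.

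Other macrophages gave a similar count. Of 6126 genes tested 0 were called (0% in either direction), 341 (5.57%) passed 0.05 before adjustment, and DESeq2 called 2 genes. Without cryoinjured replicate 1, cryoinjured replicate 2, sham replicate 1 or sham replicate 2, 647, 24, 20 and 32 were called. The replicate block gave 44 higher (0.718%) and 11 lower genes (0.18%). The sums did not overlap for 3.22% of genes on the high and 50.5% on the low side. mmp13a ENSDARG00000114451 and tppp had log2 fold changes of 2.33 and 1.99 there, and hsp90aa1.1 and hspb8 of -1.70 and -1.59, each with an adjusted p of 0.84 without the block. The effect of injury was then set against itself between the classes. Of 7307 genes tested 4 differed, all with a lower effect in il1b/tnfa macrophages (0.0547%), and 288 (3.94%) passed 0.05 before adjustment. They were apoc1, agr2, zgc:193505 and si:dkey-9i23.4. The replicate block gave 2 higher (0.0274%) and 12 lower genes (0.164%), and si:dkey-9i23.4 changed sign in it. Leaving out cryoinjured replicate 1, cryoinjured replicate 2, sham replicate 1 or sham replicate 2 gave 111, 30, 13 and 9 genes, without doublet calls it was 1, and among cells with none of the 4 neutrophil genes 0. In il1b/tnfa macrophages apoc1, an apolipoprotein gene, had 22.0 and 21.7 CPM in the cryoinjured libraries, against 3.06 and 353 CPM in the sham libraries. In other macrophages apoc1 had 62.2 and 39.3 CPM in the cryoinjured libraries, against 0.851 and 197 CPM in the sham libraries. The log2 difference of the effects was -2.24 ± 0.28 (SE), adjusted p = 0.00014, and the sham libraries differed from each other by far more than the groups did.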

How the data were processed

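Whole hearts of 4 pools of zebrafish were dissociated, fixed in methanol, treated with iodoacetamide and run on the 10X 3' platform (version 3.1 chemistry). The authors made the deposited UMI counts with Cell Ranger 4.0.0 on GRCz11, with labeled and unlabeled RNA added. The tables hold 31466 features, of which 28965 identifiers matched the annotation table used here, and 528 symbols recur. Totals per library were 86891164 and 114742778 UMIs (cryoinjured) and 114879348 and 136777379 UMIs (sham).

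From these counts, UMIs were summed per library and class, and classes were compared with edgeR 4.0.16 (quasi-likelihood, TMM, library as a term, at least 10 counts by its expression filter; R 4.3.3). Cryoinjured and sham libraries were compared without a block, and with the replicate number as a block, since the study's sample sheet names 1 operator for replicate 1 and another for replicate 2 of both groups (correlation of the deviations of same-numbered libraries 0.41). DESeq2 1.42.0 was an alternative. Standard errors were taken from each fold change and its F value. The genes of the gate, 37 mitochondrial and 14 globin genes were left out. Shares were compared by an exact permutation test over libraries (scipy 1.17.1) and have 95% Wilson intervals. Doublets were called with scanpy 1.11.5 at an assumed 0.8% per 1000 cells and kept. The steps were tested on simulated data. For cryoinjured against sham without a block, p-values measure the spread between libraries, which are pools of hearts. Between classes the library term takes out the differences in level between libraries. Those p-values measure how the difference of the classes within a library varied from library to library. In every edgeR fit the spread of a gene is estimated in part from the other genes tested. A small p-value therefore does not rest on that gene's libraries alone.

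The cells, gene lists and comparisons were chosen with earlier results of these data known. Genes are named by rule: between classes, the 15 highest and 10 lowest log2 fold changes among called genes with at least 50 CPM in the higher class and the same direction in 4 libraries (2 lower genes qualified), and for injury the 5 smallest p each way. Up to 4 genes of each list with the highest CPM were added. Further list genes were named after their values were seen. Promoter, transcript and protein sequences were not used here.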

Additional observations from a re-analysis of the deposited data

Results flagged for a closer look

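For 4 genes the effect of cryoinjury differed between il1b/tnfa macrophages and other macrophages by a test of the difference itself, the interaction term of the edgeR fit over 7307 genes. The log2 difference of the effects was -2.24 for apoc1 (adjusted p = 0.00014), -4.25 for agr2 (adjusted p = 4.9e-05), -4.34 for zgc:193505 (adjusted p = 0.039) and -5.31 for si:dkey-9i23.4 (adjusted p = 0.039). agr2 had 0 and 4.49 CPM in the cryoinjured and 6.35 and 4.21 CPM in the sham libraries in il1b/tnfa macrophages, against 0.876 and 47.7 CPM (cryoinjured) and 4.82 and 2.41 CPM (sham) in other macrophages, and its adjusted p was 0.60 without cryoinjured replicate 2. zgc:193505 had 0 and 0.748 CPM (cryoinjured) and 1.09 and 2.68 CPM (sham) in il1b/tnfa macrophages, against 0.438 and 18.7 CPM (cryoinjured) and 2.55 and 3.17 CPM (sham) in other macrophages. For both genes the value of 1 library, cryoinjured replicate 2 of the other macrophages, stood above all others. A list of surface epithelial genes, added after the data were seen because agr2 is known from mucous cells, made up 0.0456% and 0.108% of UMIs (cryoinjured) and 0.0416% and 0.0979% (sham) in il1b/tnfa macrophages, against 0.0447% and 0.273% (cryoinjured) and 0.0345% and 0.0963% (sham) in other macrophages, and its part in the difference was not tested. si:dkey-9i23.4 had 3 and 1 UMIs (cryoinjured) and 0 and 23 UMIs (sham) in il1b/tnfa macrophages, against 101 and 0 (cryoinjured) and 1 and 9 UMIs (sham) in other macrophages, so cryoinjured replicate 1 of the other macrophages held most of them. Without that library the log2 difference of si:dkey-9i23.4 was 3.30 (adjusted p = 0.89), and with the replicate block it was 1.33 (adjusted p = 1.0).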

How the results depend on the processing

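The share of macrophages with il1b or tnfa kept its direction in every alternative. The difference between cryoinjured and sham libraries was -2.09 percentage points after thinning to 1000 UMIs, where all shares were lower and the groups overlapped. It was -9.71 to -11.7 with 1 library left out. Since the groups did not overlap with all UMIs, leaving out 1 library could not reverse the direction. Between il1b/tnfa and other macrophages 201 genes were called. The count was 90 with DESeq2, of which 14 were among the 201. It was 87 without doublet calls (83 shared) and 57 with at most 25% mitochondrial UMIs (52 shared). With 1 library left out it was 104 to 215. It was 0 without the library term, where 65 genes passed 0.05 before adjustment. Alternatives chosen after seeing the data gave 53 with DESeq2 without its filter, 56 in the cryoinjured libraries alone, 86 in the sham libraries alone and 296 with library sizes alone (292 higher and 4 lower). DESeq2 called 14 higher and 76 lower genes among the 307 it gave an adjusted p, and 50 higher and 3 lower without its filter. After thinning, 97 of 883 tested genes were higher and 67 lower. si:ch1073-67j19.1 reversed after thinning (log2 fold change -0.27). The cause of these moves was not tested.

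For cryoinjured against sham, where 0 genes were called, il1b/tnfa macrophages gave 37 genes without a filter on low counts, 4 with DESeq2 and with DESeq2 without its filter, 5 after thinning and 24 to 172 with 1 library left out. Other macrophages gave 44 without a filter, 2 with either form of DESeq2 and 20 to 647 with 1 library left out. The difference of the effects gave 25 genes without a filter, 13 after thinning, 2 with library sizes alone, 1 without doublet calls, 0 among cells with no neutrophil gene (218 before adjustment) and 9 to 111 with 1 library left out. si:dkey-9i23.4 ranged from -5.80 to 3.30 with 1 library left out and was 1.33 with the replicate block. With the replicate number as a block (replicate block), 374 genes were called in il1b/tnfa macrophages, 55 in other macrophages and 14 for the difference. Same-numbered libraries deviated together (correlation 0.41 in il1b/tnfa and 0.46 in other macrophages), and the study's sample sheet gives 1 operator for each number.

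Against neutrophils, 196 genes became 309 without a filter, 0 without the library term (232 before adjustment), 130 without doublet calls and 111 to 245 with 1 library left out. Between tnfa and il1b-only cells, 11 genes became 52 without a filter, 6 with either form of DESeq2, 0 without the library term (20 before adjustment), 17 with library sizes alone, 5 without doublet calls and 9 to 72 with 1 library left out. Depth limits genes of few UMIs, since the smallest class sum of il1b/tnfa macrophages came from 122 cells.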

Other observations

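Not every il1b or tnfa UMI inside the limits lay in the il1b/tnfa macrophages. They held 24.9% and 54.9% of il1b UMIs in the cryoinjured and 54.5% and 69.4% in the sham libraries, and neutrophils held 18.5% and 14.5% (cryoinjured) and 5.88% and 8.02% (sham). The barcodes of the cardiomyocyte gate described above held 418 and 274 il1b UMIs in the cryoinjured and 247 and 244 in the sham libraries. In cryoinjured replicate 1 this was more than the 223 of the il1b/tnfa macrophages. Their level was lower (9.71 and 7.94 CPM in the cryoinjured and 4.21 and 4.39 CPM in the sham libraries). That gate sets no limit on neutrophil genes, so barcodes of the neutrophil class can be among them and their UMIs counted in both. The part of free RNA in these UMIs was not tested. Erythrocytes, barcodes with at least 25% of UMIs from the 4 globin genes, lie outside these limits. They held 39 and 29 il1b UMIs (cryoinjured) and 3 and 62 (sham), which the totals below leave out. Of tnfa UMIs the il1b/tnfa macrophages held 63.1% and 87.4% in the cryoinjured and 71.1% and 70.14% in the sham libraries. The totals inside the limits were 897 and 973 (cryoinjured) and 765 and 2170 (sham) UMIs of il1b, and 103 and 253 (cryoinjured) and 152 and 566 (sham) UMIs of tnfa.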
